A study of Arabidopsis thaliana with 9 samples.

Results

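The cytosolic ribosomal proteins of Arabidopsis thaliana, together with the ribosome-bound scaffold protein RACK1A, were followed as preys in a yeast two-hybrid screen. The list held 52 genes, chosen by gene identifier and not by a measured value, and 6 of the 52 had a row in the table of 10224 genes. They were RPL3A (AT1G43170), RPL5A (AT3G25520), RACK1A (AT1G18080), AT1G01100, AT3G09200 and AT3G11250. The other 46 listed genes were not analysed here. RPL3A and RPL5A belong to the large ribosomal subunit and RACK1A sits on the small one. The reference gene table gives no name to the other 3 members, which are therefore called by their identifiers. These 3 were not assigned to a subunit here, so a full comparison of the subunits was not made.

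In a two-hybrid screen, yeast grows without histidine when a prey protein, made from a cloned cDNA, comes together with the bait protein and switches on a reporter. The screen used 3 baits, namely PKS5 and SOS2, both protein kinases regulated by calcium sensors, and the actin-binding protein SCAB1. Each bait had 3 libraries, taken after 0, 2 and 4 h of recovery and numbered 1, 2 and 3 in that order. All 9 libraries came from an Arabidopsis cDNA library in yeast selected on medium lacking tryptophan, leucine and histidine with 1 mM 3-AT, which blocks the histidine enzyme and so raises the stringency, and each was made from over 3000 colonies. No library from unselected yeast is labelled, so each bait was set against the other baits. The 3 libraries of 1 bait were taken at different recovery times and nothing states that they were separate cultures, so p-values measure the spread between these libraries, which may be technical.

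Cytosolic ribosomes make the proteins of the cell, and the genes of their proteins are among the most strongly expressed in growing plant tissue, so their cDNAs are usually plentiful in a cDNA library. Many of these proteins are encoded in Arabidopsis by several similar gene copies, and both RPL3 and RACK1 have such copies. RPL3 lies close to the site of peptide bond formation, RPL5 carries the small ribosomal RNA of the large subunit into the ribosome, and RACK1 is a WD-repeat protein on the small subunit that is known in animals as a docking site for kinases.

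Levels are given as CPM, the reads of a gene divided by the total of its library and scaled to a common total. Library totals ran from 1640114 to 3288437 reads, with a median of 2110556. A count of 0 allows up to 3 reads, which was 0.912 to 1.83 CPM depending on the library. That limit covers counting error only, since reads are PCR copies and not independent molecules. Reads mark how often an insert was sequenced and were not divided by gene length, so CPM levels are compared between baits for 1 gene. Where reads of different genes are set side by side below, as in shares of reads, the values are descriptions that take no account of length. Differences between baits were tested with limma-voom over 3811 genes, after scaling with TMM factors, which bring the bulk of genes to a common level and were lowest in PKS5 replicate 2 (0.438) and highest in SOS2 replicate 1 (2.40). An adjusted p under 0.05 counted as a call. Of the 6 members, 5 had enough reads to be tested, and all 5 had at least 10 reads in each of the 9 libraries.

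Of the 5 tested members, 3 differed between the baits by the F test of limma-voom, namely RPL3A, RPL5A and RACK1A. The same test called 45.1% of all tested genes, so 3 of 5 does not set the members apart. RPL3A was recovered mostly with SCAB1, RPL5A mostly with SOS2, and RACK1A with both SOS2 and SCAB1, and all 3 were low with PKS5. AT1G01100 and AT3G09200 did not pass (adjusted p = 0.812 and 0.989 by limma-voom). The plot of CPM by bait shows these patterns.

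**Figure D1:**
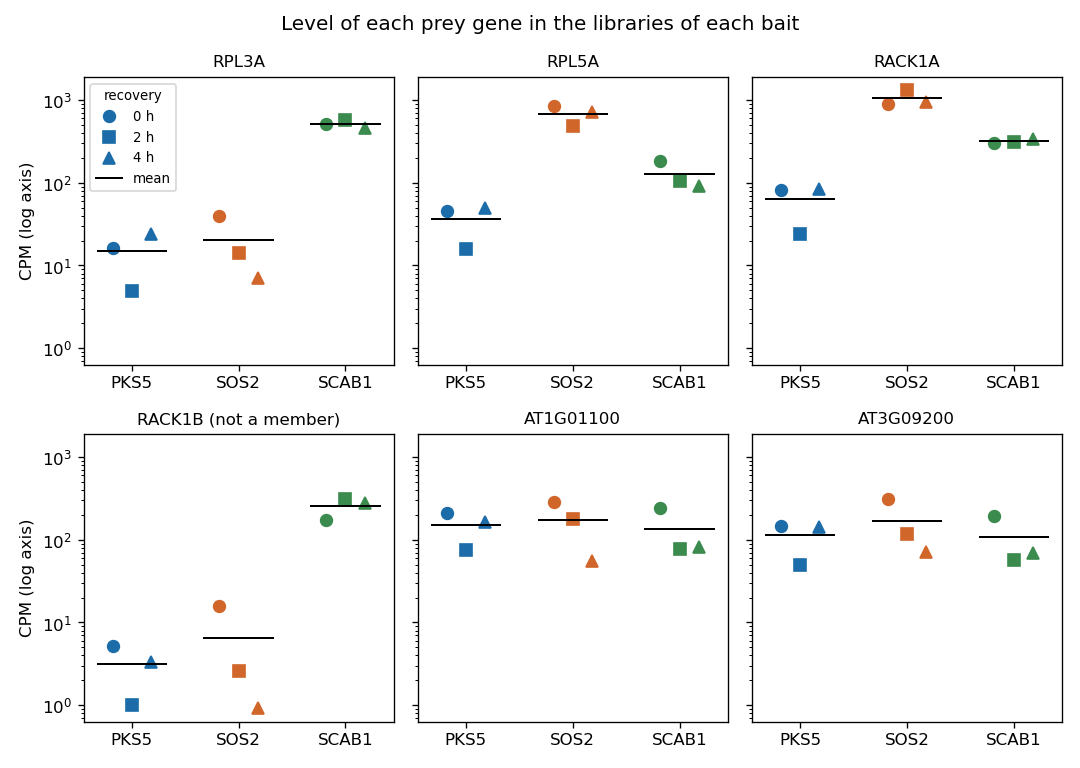
CPM on a log axis in each of the 9 libraries, by bait, for the 5 tested members and for RACK1B, a RACK1 copy outside the list; marker shapes give the recovery time and bars give the mean of 3 libraries. RPL3A and RACK1B stand between 175 and 579 CPM in SCAB1 libraries and at or below 40.1 CPM in all PKS5 and SOS2 libraries, while AT1G01100 and AT3G09200 overlap between all baits.

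RPL3A, the large-subunit protein near the peptide-forming site, had 16.1, 4.96 and 23.9 CPM in PKS5 libraries at 0, 2 and 4 h. It had 40.1, 14.3 and 6.99 CPM in SOS2 libraries, and 511, 579 and 458 CPM in SCAB1 libraries. The lowest SCAB1 library was far above every PKS5 and SOS2 library, and the PKS5 and SOS2 libraries overlapped. The means were 15 ± 9.53 CPM in PKS5, 20.5 ± 17.4 CPM in SOS2 and 516 ± 60.6 CPM in SCAB1 (SD, n = 3 each). On the log2 scale, PKS5 minus SCAB1 was -5.57 (SE 0.46, adjusted p = 1.48e-09 by limma-voom) and SOS2 minus SCAB1 was -5.57 (SE 0.45, adjusted p = 1.14e-09 by limma-voom), which was -6.29 without SCAB1 replicate 1. PKS5 and SOS2 were not told apart, at a difference of 0.01 (SE 0.41, adjusted p = 0.994 by limma-voom).

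RPL5A, the carrier of the small ribosomal RNA, had 45.0, 15.9 and 49.8 CPM in PKS5 libraries, 839, 490.1 and 711 CPM in SOS2 libraries, and 184, 106 and 91.5 CPM in SCAB1 libraries. The 3 baits did not overlap, with SOS2 highest, SCAB1 between and PKS5 lowest. PKS5 minus SOS2 was -4.01 on the log2 scale (SE 0.44, adjusted p = 9.82e-08 by limma-voom). SOS2 minus SCAB1 was 1.94 (SE 0.45, adjusted p = 0.00114 by limma-voom). Both sizes rested partly on SOS2 replicate 3, without which they were -3.22 and 1.16 (adjusted p = 3.51e-06 and 0.0308 by limma-voom). PKS5 minus SCAB1 was -2.07 (SE 0.38, adjusted p = 0.000173 by limma-voom), and this call depended on the scaling: with library size alone the difference was -1.91 at an adjusted p of 0.0724 by limma-voom, and with the 11 genes above 5% of any library left out as well it was -1.21 at 0.223.

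RACK1A, the small-subunit scaffold, had 81.0, 24.1 and 84.7 CPM in PKS5 libraries, 887, 1316 and 938 CPM in SOS2 libraries, and 306, 308 and 343 CPM in SCAB1 libraries. The baits did not overlap in CPM and stood in the same order as for RPL5A. PKS5 minus SOS2 was -3.95 on the log2 scale (SE 0.51, adjusted p = 9.87e-07 by limma-voom), and PKS5 minus SCAB1 was -2.79 (SE 0.45, adjusted p = 3.76e-05 by limma-voom). SOS2 minus SCAB1 was 1.17 (SE 0.54) and did not pass (adjusted p = 0.0938 by limma-voom). After TMM scaling, SOS2 libraries stood at 369, 1222 and 1321 and SCAB1 libraries at 178, 545 and 533, so that SOS2 was above SCAB1 at each recovery time and the overlap lay between times. The difference passed under 4 of 17 alternatives, and the adjusted p ran from 0.00131 to 0.746. It passed with library size alone (1.69, adjusted p = 0.00774 by limma-voom) and with genes above 5% of any library left out as well (1.65, adjusted p = 0.00131). It also passed with recovery time as a term of the fit and without SOS2 replicate 1 (1.53, adjusted p = 0.0436 by limma-voom). The call thus depended on the scaling, among other settings. Without SOS2 replicate 3, PKS5 minus SOS2 was -3.32.

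Counted by pair of baits, PKS5 was lower than SOS2 for 2 of the 5 members and higher for 0, where 24.8% of all tested genes were called lower and 7.16% higher. PKS5 was lower than SCAB1 for 3 members and higher for 0, beside 12.1% and 6.25% of all tested genes. SOS2 was higher than SCAB1 for 1 member and lower for 1, beside 25.5% and 15.1%. The median log2 difference of the 5 members was -0.05, -2.07 and 0.06 in these 3 comparisons, and that of all tested genes was -0.18, 0.05 and 0.25.

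AT1G01100 had 209.9, 74.4 and 163 CPM in PKS5 libraries, 291, 179.8 and 56.0 CPM in SOS2 libraries, and 240.3, 78.3 and 82.3 CPM in SCAB1 libraries. AT3G09200 had 149, 49.2 and 145 CPM in PKS5 libraries, 316, 117 and 70.2 CPM in SOS2 libraries, and 194, 56.4 and 70.1 CPM in SCAB1 libraries. Both genes varied more within a bait than between baits. The highest library exceeded the lowest 5.19 times for AT1G01100 and 6.41 times for AT3G09200 in CPM, and 2.16 and 1.33 times after TMM scaling. Their levels thus moved between libraries largely as the bulk of genes did, since TMM factors are set by that bulk. For AT1G01100 the fit to genes with at least 100 reads gave an F test adjusted p of 0.0121 by limma-voom, with PKS5 minus SOS2 at 1.178 on the log2 scale. AT3G09200 had 0.82 for PKS5 minus SOS2 in that fit (adjusted p = 0.0484 by limma-voom), while its F test did not pass (adjusted p = 0.119). In that smaller set of 1233 genes, 85.1% were called by the F test.

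AT3G11250 was close to absent in the libraries, at 0, 1 and 2 reads in PKS5, 5, 2 and 0 reads in SOS2, and 3, 0 and 1 reads in SCAB1. These counts do not separate the baits and the gene was not tested. The number of members with at least 10 reads was 5 in every library.

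The makeup of the member reads differed between the baits. The 6 members together took 501, 169 and 467 CPM in PKS5 libraries, 2374, 2118 and 1783 CPM in SOS2 libraries, and 1437, 1128 and 1046 CPM in SCAB1 libraries, with no overlap between baits in CPM. After TMM scaling the sums were 361, 386 and 326 in PKS5 libraries, 988, 1967 and 2509 in SOS2 libraries, and 835, 1998 and 1624 in SCAB1 libraries, so that SOS2 and SCAB1 overlapped and PKS5 stayed below both. With the table's distinct reads (its second measure) the log2 difference of the summed share for PKS5 minus SOS2 was -0.0199, against -2.61 with all reads. The 2 named large-subunit genes, RPL3A and RPL5A, held 13.4 ± 2.03% of the member reads with PKS5, 33.7 ± 8.72% with SOS2 and 53.9 ± 6.31% with SCAB1 (SD, n = 3 each). That share differed by -40.5 percentage points for PKS5 minus SCAB1, and by -6.94 points with distinct reads. It is not the share of the whole large subunit, since the 3 members known by identifier were not assigned to a subunit and lie outside it. Neither the size nor the sign of this difference is therefore read as a difference between subunits. RACK1A held 16.2 ± 1.92% with PKS5 and 27.1 ± 5.76% with SCAB1. In PKS5 libraries most member reads, 70.4 ± 3.81%, fell on AT1G01100, AT3G09200 and AT3G11250, against 15.6 ± 9.37% in SOS2 libraries and 19.0 ± 9.92% in SCAB1 libraries. In SOS2 libraries RACK1A held 50.7 ± 12.5% of them, and in SCAB1 libraries RPL3A held 43.6 ± 7.89%. These sums are descriptions over members chosen with earlier results known, and no test is attached to them.

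**Figure D2:**
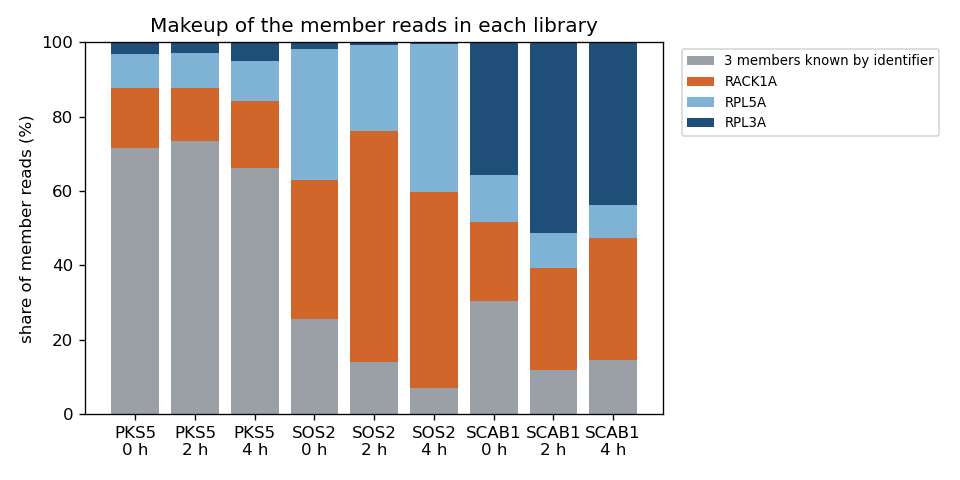
Share of the reads of the 6 members, in percent, that fell on RPL3A, RPL5A, RACK1A and the 3 members known by identifier, in each of the 9 libraries ordered by bait and recovery time. The identifier-only members hold 66.1 to 73.4% in PKS5 libraries, RACK1A holds 37.3 to 62.1% in SOS2 libraries and RPL3A holds 35.6 to 51.3% in SCAB1 libraries.

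The copies of RACK1 and RPL3 that lie outside the list were set beside their members. RACK1B, a copy of RACK1A outside the list, had 5.21, 0.991 and 3.35 CPM in PKS5 libraries, 15.9, 2.56 and 0.912 CPM in SOS2 libraries, and 175, 314 and 279 CPM in SCAB1 libraries. It was high in the SCAB1 libraries and low in all SOS2 libraries, where RACK1A had its highest levels, and PKS5 and SOS2 overlapped. PKS5 minus SCAB1 was -6.72 on the log2 scale (SE 0.68, adjusted p = 3.31e-08 by limma-voom) and SOS2 minus SCAB1 was -6.45 (SE 0.63, adjusted p = 1.89e-08 by limma-voom). Without SCAB1 replicate 1 both were -7.36, and without SOS2 replicate 1 the second was -7.47. RACK1B passed the filter on low reads through its SCAB1 libraries, so that a difference between baits was favoured by the filter.

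As a share of the reads on the 3 RACK1 copies, RACK1B took 4.46 ± 1.12% with PKS5, 0.683 ± 0.932% with SOS2 and 43.7 ± 7.34% with SCAB1 (SD, n = 3 each). Its lowest SCAB1 library, at 35.9%, lay above its highest PKS5 library, at 5.76%. RACK1C had 0.479 to 4.26 CPM in PKS5 libraries, 0 to 4.55 CPM in SOS2 libraries and 0.874 to 5.996 CPM in SCAB1 libraries, with 12 reads at most, and the baits overlapped. RPL3B, the copy of RPL3A, was at 0 reads in all 3 PKS5 libraries, had 15, 4 and 10 reads in SOS2 libraries, and had 7, 3 and 1 reads in SCAB1 libraries. Its reads were thus few with SCAB1, where RPL3A had 1023, 1324 and 751 reads. The sources used here do not say how reads of similar copies were divided, and therefore the split between copies is uncertain.

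The deposited table also lists, for each gene, a number of unique reads, called distinct reads here, and this second measure differed much less between baits. The column of SCAB1 replicate 3 repeats that of replicate 2 and was not used. For RPL3A there were 12, 6 and 10 distinct reads in PKS5 libraries, 17, 9 and 9 in SOS2 libraries, and 22 and 9 in SCAB1 replicates 1 and 2. For SCAB1 replicate 2 the 9 distinct reads of RPL3A stood for 147 reads each, whereas the 6 of PKS5 replicate 2 stood for 2.50 each. Over all genes a distinct read stood for 101 reads in SCAB1 replicate 2 and for 137 reads in PKS5 replicate 2. RPL3A thus lay somewhat above the average of that SCAB1 library and far below the average of that PKS5 library.

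RACK1A likewise had 19, 13 and 19 distinct reads in PKS5 libraries, 33, 29 and 24 in SOS2 libraries, and 24 and 14 in SCAB1 libraries. Its reads per distinct read were 9, 5.62 and 9.32 in PKS5 libraries, 59.0, 88.6 and 129 in SOS2 libraries, and 25.5 and 50.3 in SCAB1 libraries. RPL5A had 23, 15 and 22 distinct reads in PKS5 libraries, 49, 52 and 45 in SOS2 libraries, and 34 and 15 in SCAB1 libraries. For AT1G01100 the distinct reads numbered 32, 26 and 24 in PKS5 libraries, 38, 36 and 22 in SOS2 libraries, and 28 and 17 in SCAB1 libraries. The 2 genes known by identifier had 5.18 to 17.2 reads per distinct read in all 8 libraries.

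**Figure D3:**
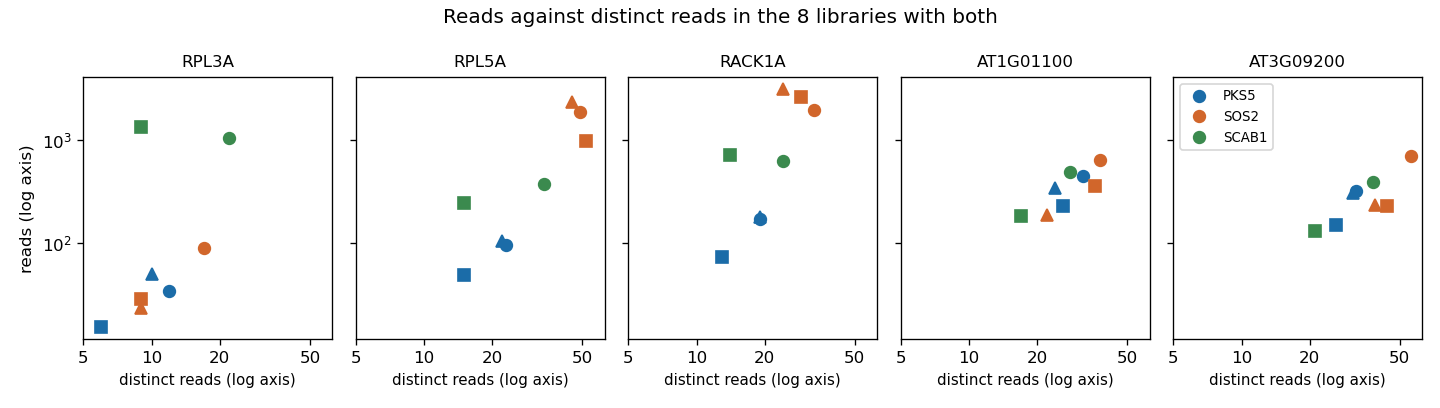
Reads against distinct reads, both on log axes, for the 5 tested members in the 8 libraries where both can be used; colours give the bait and marker shapes the recovery time as in the plot of CPM by bait. RPL3A in SCAB1 libraries and RACK1A in SOS2 libraries rise to 1324 and 3086 reads at 9 and 24 distinct reads, while AT1G01100 and AT3G09200 lie along 1 band for all baits.

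Fitted to distinct reads, where 872 genes passed the filter and 45.6% were called by the F test, RPL3A and RPL5A still differed between the baits (adjusted p = 0.0425 and 0.00427 by limma-voom) and RACK1A did not (adjusted p = 0.742). For RPL3A, SOS2 minus SCAB1 was then -0.89 on the log2 scale (SE 0.26, adjusted p = 0.0113 by limma-voom), and PKS5 minus SCAB1 was -0.56 (SE 0.28, adjusted p = 0.175). For RPL5A, PKS5 minus SOS2 was -0.67 (SE 0.16, adjusted p = 0.00218 by limma-voom), SOS2 minus SCAB1 was 0.52 (SE 0.18, adjusted p = 0.029) and PKS5 minus SCAB1 was -0.15 (SE 0.20, adjusted p = 0.672). RACK1A lost all its calls, at -0.14 for PKS5 minus SOS2 (adjusted p = 0.525 by limma-voom) and -0.05 for PKS5 minus SCAB1 (adjusted p = 0.886). The differences called with all reads kept their sign, at a smaller size. The sources used here do not say what makes a read distinct, and the part of PCR copying in the read numbers was not tested.

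**Figure D4:**
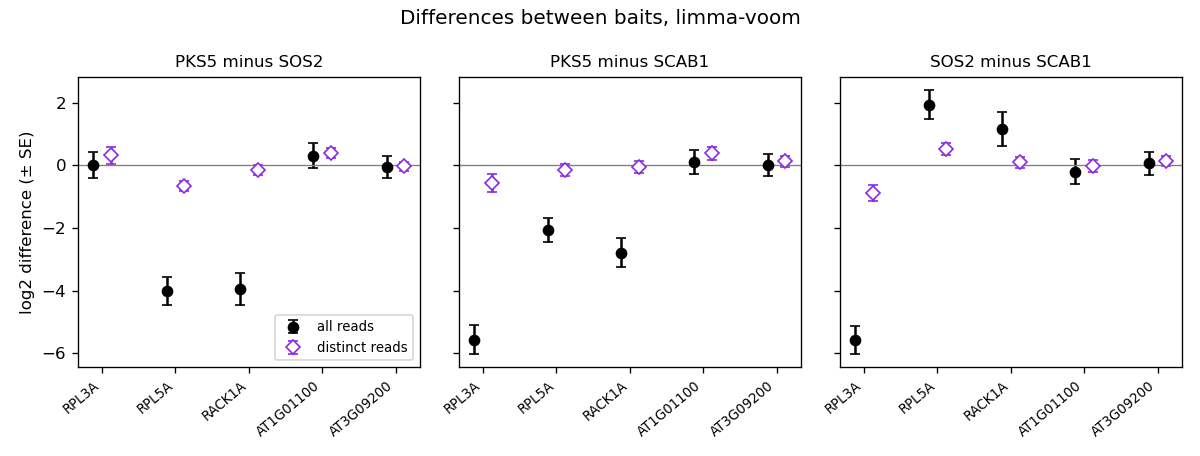
Log2 differences between baits with standard errors from limma-voom for the 5 tested members, from all reads in 9 libraries (filled circles) and from distinct reads in 8 libraries (open diamonds). With all reads RPL3A lies at -5.57 against SCAB1 for both other baits, and with distinct reads at -0.56 and -0.89.

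Across recovery times, 0 of the 5 members were called when 2 and 4 h were compared with 0 h with the bait as a block in limma-voom, and 0% of all tested genes were called in either direction (375 genes had an unadjusted p under 0.05). RACK1A had the largest difference among the members, 1.01 on the log2 scale (SE 0.35, adjusted p = 0.313 by limma-voom). With library size alone, AT1G01100 and AT3G09200 were called lower at 2 and 4 h, by -1.38 and -1.45 (adjusted p = 0.0475 for both by limma-voom), where the median of all genes was -1.21 and 10% of genes were called. After TMM scaling the same differences were -0.10 and -0.16, at a median of 0.07. The direction for RPL3A, RPL5A and RACK1A turned with the scaling, at 0.37, 0.52 and 1.01 with TMM and -0.64, -0.68 and -0.04 with library size alone, none of them called.

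Within each bait there was 1 library per time, so no test within a bait was made. The order of the times within a bait turned with the scaling for most members. In CPM all 5 tested members were lowest at 2 h with PKS5, the library with the lowest TMM factor. After TMM scaling, AT1G01100 (151, 169.8 and 114 at 0, 2 and 4 h), AT3G09200 (107, 112 and 101) and RPL5A (32.4, 36.2 and 34.7) were highest there at 2 h. With SOS2, RPL3A and AT3G09200 stood highest at 0 h and lowest at 4 h on both scales. RPL5A with SOS2 was highest at 0 h in CPM, but stood at 349, 455 and 1001 after TMM scaling. With SCAB1, RPL5A had less CPM at 2 and 4 h than at 0 h, but stood at 107, 188 and 142 after TMM scaling. RACK1A with SCAB1 lay between 306 and 343 CPM, but at 178, 545 and 533 after TMM scaling. No order of times within a bait is therefore read from these values.

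Other genes of protein synthesis were counted from a list of 22 translation factors. The reference table names 12 of them, of which 11 had a row and 9 were tested. The 10 that it does not name were left out of the counts below. By the F test of limma-voom 6 of the 9 differed between baits, beside 45.1% of all tested genes. PKS5 was higher than SOS2 for 1 and lower for 3 (7.16% and 24.8% of all tested genes). PKS5 was higher than SCAB1 for 0 and lower for 3 (6.25% and 12.1%). SOS2 was higher than SCAB1 for 2 and lower for 3 (25.5% and 15.1%). With 9 genes these counts do not set the named factors apart, and they do not speak for the factors left out. Among those, PKS5 minus SOS2 on the log2 scale was -4.46 for AT1G07920, -2.82 for AT1G07930, -4.67 for AT1G07940 and -3.90 for AT5G60390. It was -4.00 for AT1G56070 and -1.07 for AT1G09640, and all of these were called (adjusted p from 9.72e-08 to 0.037 by limma-voom). The difference was -0.48 for AT1G57720, -0.06 for AT2G18110 and 0.30 for AT5G19510, none of them called (adjusted p = 0.354, 0.940 and 0.632 by limma-voom). The cap-binding initiation factor eIFiso4E had 13.9 ± 7.24 CPM with PKS5, 254 ± 25.8 CPM with SOS2 and 5.16 ± 4.19 CPM with SCAB1 (SD, n = 3 each), and SOS2 minus SCAB1 was 5.31 on the log2 scale (adjusted p = 2.13e-08 by limma-voom). The RNA helicase eIF4A2 had 18.3 ± 11.0 CPM with PKS5, 238 ± 59.2 CPM with SOS2 and 15.1 ± 9.41 CPM with SCAB1. Another listed gene, eIF4A1, had 33.0 ± 16.6, 106 ± 65.0 and 121 ± 13.2 CPM with these baits. For eIF4A1 the SOS2 minus SCAB1 difference was -0.99 and did not pass (adjusted p = 0.0937 by limma-voom). ELF5A-2, which helps ribosomes through stalling sequences, had 262 ± 127 CPM with PKS5, 703 ± 294 CPM with SOS2 and 2177 ± 295 CPM with SCAB1.

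As a description, the genes whose log2(CPM + 1) most resembled that of 1 member per bait over the 9 libraries were listed. The member was the one with the most reads there, a choice that takes no account of gene length and ranks no gene. For AT1G01100, taken for PKS5, they were GAMMA-VPE, GRP7 and LEA18 (Pearson r = 0.990, 0.989 and 0.987). For RACK1A, taken for SOS2, they were PRXCB, AT1G07940 and AT1G07920 (r = 0.989, 0.985 and 0.984). Both AT1G07940 and AT1G07920 are among the listed translation factors that were left out of the counts above. For RPL3A, taken for SCAB1, they were AT4G19410, GAD2 and UBC19 (r = 0.998, 0.997 and 0.997). The 9 libraries fall into 3 bait groups, and all genes of a library share its depth and scaling, so these values carry no test.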

How the data were processed

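Per the labels, prey inserts were amplified by PCR from plasmids of selected yeast, sheared, joined to adaptors and enriched for fragments with 29 bp of vector sequence. HISAT2, cutadapt 1.18, CASAVA and the TAIR10 build appear, without a role, in the submitters' processing notes. The authors deposited 1 table with whole-number read counts and unique-read counts per gene, not normalized, per the file headers, with a mark where a gene had no read, read as 0. The unique-read column of SCAB1 replicate 3 was left out, because 10224 of its 10224 cells equal those of replicate 2 and 1429 exceed the reads of the gene.

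Groups and recovery times came from the labels. The members and lists were chosen with earlier results of these data known. A gene was tested if at least 3 libraries held about 10 reads of it, scaled to the median library, and the whole table held 15. Limma-voom (limma 3.58.1, R 4.3.3) used TMM factors that were computed anew, trimming 30% of the M values and 5% of the A values. It used an offset of 0.5 and all 9 libraries, with Benjamini-Hochberg adjustment over 3811 genes. The code was also run on simulated counts with the same spread for all genes and no shift of the bulk of genes between libraries. These libraries are less regular, so that run does not show how the test performs on them. Sums over members were computed in Python 3.11.15 and are given without the permutation tests planned for them, since the members were chosen with results known. Between libraries of the same bait the chi-square of gene counts was 17.2 to 62.2 for each degree of freedom, so no library repeats another. Names came from RefSeq (assembly TAIR10.1), which held 10201 of the 10224 identifiers, and no sequence or coordinate was used. Values were named for the members with the most reads, the smallest F test p and the copies of a family. Alternatives covered scaling, filters, distinct reads, each library left out, and recovery time as a block.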

Additional observations from a re-analysis of the deposited data

Results flagged for a closer look

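RACK1B, the copy of RACK1A outside the list, moved in opposite directions with recovery time in different baits. On the log2(CPM + 1) scale, the mean of 2 and 4 h minus 0 h was -1.078 with PKS5, -2.698 with SOS2 and 0.757 with SCAB1, and both later libraries lay on the same side of the library at 0 h in each bait. The difference between baits was not tested, since each bait has 1 library per time, and the PKS5 and SOS2 values rest on 3 to 35 reads. With TMM scaling the levels at 0, 2 and 4 h were 3.76, 2.26 and 2.34 in PKS5, 6.64, 2.38 and 1.28 in SOS2, and 102, 557 and 434 in SCAB1.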

How the results depend on the processing

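Across 17 alternatives no called difference of a member reversed. Of the 7 called pairwise differences of members, RPL3A for SOS2 minus SCAB1 and RPL5A for PKS5 minus SOS2 and SOS2 minus SCAB1 stayed called under all 17. With distinct reads, 1 member was called for PKS5 against SOS2 and 0 for PKS5 against SCAB1, the log2 difference of the summed share for PKS5 minus SOS2 was -0.0199 (with all reads -2.61), the RPL3A and RPL5A share for PKS5 minus SCAB1 was -6.94 percentage points (with all reads -40.5) and the RACK1B share of RACK1 reads for PKS5 minus SCAB1 was -20.5 points (with all reads -39.2). Members with at least 10 distinct reads differed by 0.333 on average between PKS5 and SOS2. With at least 100 reads, 4 members were called for PKS5 against SOS2, AT1G01100 and AT3G09200 among them. With library size alone, 2 were called for recovery. Outside genes above 5% of any library the summed difference was -1.90, and without RACK1A, the member with the most reads, it was -1.81 and the RPL3A and RPL5A share differed by -58.3 points. Over the libraries left out in turn the summed difference ran from -2.89 to -2.10. Library size alone, the table without genes above 5% and the filter of 100 reads gave infinite prior degrees of freedom, so their smallest p-values rest on a spread shared by all genes. Leaving out the libraries at 0 h, chosen after seeing the data, changed no member count, and RACK1B could not be tested there or with distinct reads.

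With recovery time as a replicate block, the member counts were 3 for the F test, 2 for PKS5 against SOS2, 3 for PKS5 against SCAB1 and 3 for SOS2 against SCAB1, where RACK1A then passed (log2 difference 1.177, adjusted p = 0.0274 by limma-voom). Same-numbered libraries share a recovery time, and their deviations from bait means correlated by -0.021 to 0.161 over 9 pairs (median 0.037). The numbers were therefore not taken as pairs in the main fit. A correlation over all genes cannot show whether a single gene such as RACK1A follows recovery time.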
